A study of Mus musculus with 14 samples.

Results

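Ribosome biogenesis and nucleolar factors were followed in E14 mouse ES cells, a feeder-free embryonic stem cell line, that were treated with the mTOR inhibitor Ink128 (mTORi). The set held 50 named protein-coding genes, each with 1 gene identifier, out of the 54446 gene identifiers in the files, and all 50 were among the 18232 genes tested. WT cells were collected at 0, 24, 72 and 144 h of mTORi and cells labelled E14 TET1/2 DKO at 0, 24 and 72 h, where 0 h is culture without the inhibitor. Each of these 7 groups held 2 libraries, so that 14 RNA-seq libraries entered. In the DKO cells a part of *Tet1* and of *Tet2*, genes of enzymes that oxidize methylated cytosine, had been cut out with Cas9, and the line was grown from single sorted WT cells, so that genotype and clonal origin cannot be told apart. All groups were kept in serum with LIF.

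A cell makes ribosomes in the nucleolus. RNA polymerase I transcribes a long precursor, small nucleolar ribonucleoproteins (snoRNPs) of the box C/D and box H/ACA kinds modify it, and large assemblies of processing factors cut and fold it into the small and the large ribosomal subunit. The mTOR kinase is a known activator of this pathway and of the translation of ribosomal protein mRNAs. The 50 genes were ordered by role, with 3 in Pol I transcription, 4 in box C/D snoRNPs, 4 in box H/ACA snoRNPs, 20 in the small subunit, 14 in the large subunit and 5 nucleolar organisers and cofactors.

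Levels are given as spike-in normalized TPM, that is, deposited TPM (length-corrected transcript levels that sum to the same total in each library) multiplied by 1 factor per library that places equal ERCC spike-in RNA on 1 scale. Plain TPM are the same values without the factor and describe a gene's length-corrected share of the annotated transcripts in its library, after rRNA depletion. The factors lay between 1.0 and 2.81, and within a group they were equal in WT cells at 0 h (2.11 in both) and furthest apart in DKO cells at 24 h (2.24 and 1.36). TPM keep no read number, so the depth cannot be read from these values and no counting error is given. The labels do not say whether the 2 libraries of a group came from separate cultures, although the study's methods speak of biological replicates, and p-values measure only the spread between these libraries. In bulk RNA, fewer cells of a type and less RNA per cell cannot be told apart.

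*Tet2* had 27.1 to 55.0 spike-in normalized TPM in the 6 DKO libraries and 129 to 210.4 in the 8 WT libraries. *Tet1* had 238 to 602 in DKO and 344 to 516 in WT libraries, and the level of the whole gene does not check a deletion of a part of it. The study's methods state that clones were screened by PCR and that western blots for TET1 and TET2 verified the knockouts. The 6 ES cell markers *Pou5f1*, *Sox2*, *Nanog*, *Esrrb*, *Zfp42* and *Tfcp2l1* summed to 2626 to 6683 spike-in normalized TPM in every library. They summed to 5179 and 5274 in WT cells at 0 h and to 2626 and 2884 at 144 h. The 6 primitive endoderm markers summed to 94.7 and 215 in the WT libraries at 24 h against 17.9 and 45.9 at 0 h and 5.73 and 6.0 at 144 h, and the part of either list in the changes below was not tested. In DKO replicates 1 and 2 they summed to 68.6 and 20.4 at 0 h, 108 and 23.9 at 24 h and, last, 56.0 and 20.7, so that replicate 1 was higher at each time. None of these 6 markers was at 0 in every library of a group. The sums were 21.3 to 131 for 5 trophectoderm, 6.82 to 16.3 for 4 mesendoderm, 8.74 to 37.9 for 3 neuroectoderm and 2.37 to 42.1 for 5 fibroblast markers.

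The genes were abundant. On the mean over all libraries their levels ran from 68.3 spike-in normalized TPM for *Imp4*, a small subunit factor, to 5328 for *Npm1*, the nucleolar chaperone nucleophosmin. All 50 were at or above the 78.7th percentile of the genes tested. *Ncl*, which encodes nucleolin, followed with 1268 and *Nop56*, a core protein of box C/D snoRNPs, with 871. The sum of the 50 genes took 1.05% and 1.08% of all plain TPM in untreated WT cells, then 0.833% and 0.893% after 24 h, 0.945% and 0.786% after 72 h and finally 1.01% and 0.959% after 144 h. In DKO cells the shares were 1.02% and 1.14% before mTORi, 0.859% and 0.874% after 24 h and 0.872% and 1.01% after 72 h. The libraries at 24 h lay below those at 0 h in both genotypes.

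Promoters were searched for 1 motif, and 10 of the 43 genes with an entry in RefSeq's promoter table (build GRCm38.p6, 250 bases before to 50 after the start) held the E-box CACGTG, a motif bound by MYC and related factors. That was 23.3%, beside 11.8% of 10865 other tested genes and 13.8% of the 3608 of these whose mean level reached 50 spike-in normalized TPM. The motif was in 20.3% of 79 other ribosome biogenesis factors, 10.3% of 58 ribosomal protein genes and 8.09% of all 27025 genes with an entry. By entry it was in 19.2% of the members' 52 and in 7.15% of all 32851. In 41 of the 52 entries the bases after the start matched an annotated transcript of the gene. CACGTG reads the same on both strands, so 1 search covers both. Of the 11 motifs, 5 lay before the start and 6 after it. Of the 10 genes, 6 were small subunit factors. The 100 bases that end at the base before the start are shown for the 3 genes with an E-box in them, *Rrn3*, *Utp18* and *Nop2*, to show the motif (capitals) in its setting; it starts 48, 20 and 60 bases before the start, and *Rrn3* has a second one 215 bases before it.
Rrn3 (chr16:13780599-13780698, plus strand): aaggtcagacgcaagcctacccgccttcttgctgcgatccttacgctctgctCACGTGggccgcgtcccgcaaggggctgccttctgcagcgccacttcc
Utp18 (chr11:93885767-93885866, minus strand): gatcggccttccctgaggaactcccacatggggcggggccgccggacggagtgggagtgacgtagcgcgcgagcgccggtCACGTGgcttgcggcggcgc
Nop2 (chr6:125131783-125131882, plus strand): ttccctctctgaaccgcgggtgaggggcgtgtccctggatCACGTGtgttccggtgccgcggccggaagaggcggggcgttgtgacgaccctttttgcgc
*Rrn3* encodes the Pol I initiation factor TIF-IA, *Utp18* a subunit of the small subunit processome and *Nop2* a methyltransferase of the large subunit precursor. The 10 genes with the motif had a median log2 fold change of -1.06 at 144 h in WT cells and the 33 without it -1.13 in spike-in normalized TPM, while the median of plain TPM was -0.04 and -0.11. At 24 h the medians were -0.49 and -0.67 in spike-in normalized TPM and -0.12 and -0.30 in plain TPM.

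Of the 50 genes, 8 carry snoRNA genes within their bounds on the same strand, 29 in all (GENCODE vM21). These host genes were *Taf1d* with 8, *Nop56* with 5, *Nop58* with 4, *Wdr43*, *Gnl3* and *Ncl* with 3 each, *Tsr1* with 2 and *Dkc1* with 1. Reads of a host and of its snoRNAs could be split by the counting. The hosts had a median log2 fold change of -1.06 at 144 h in WT cells and the other 42 genes -1.14 in spike-in normalized TPM. Exons of 17 of the 50 genes overlap exons of a gene on the other strand, such as *Nop56* with *Idh3b*, *Rrp9* with *Parp3*, *Nhp2* with *Rmnd5b*, *Bop1* with *Mroh1*, *Taf1d* with *Cep295*, *Gnl3* with *Pbrm1*, *Mybbp1a* with *Spns2* and *Gnl2* with *Dnali1*. The study's methods list no strand option for the transcript quantification, and reads of such pairs might not be told apart.

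**Figure D1:**
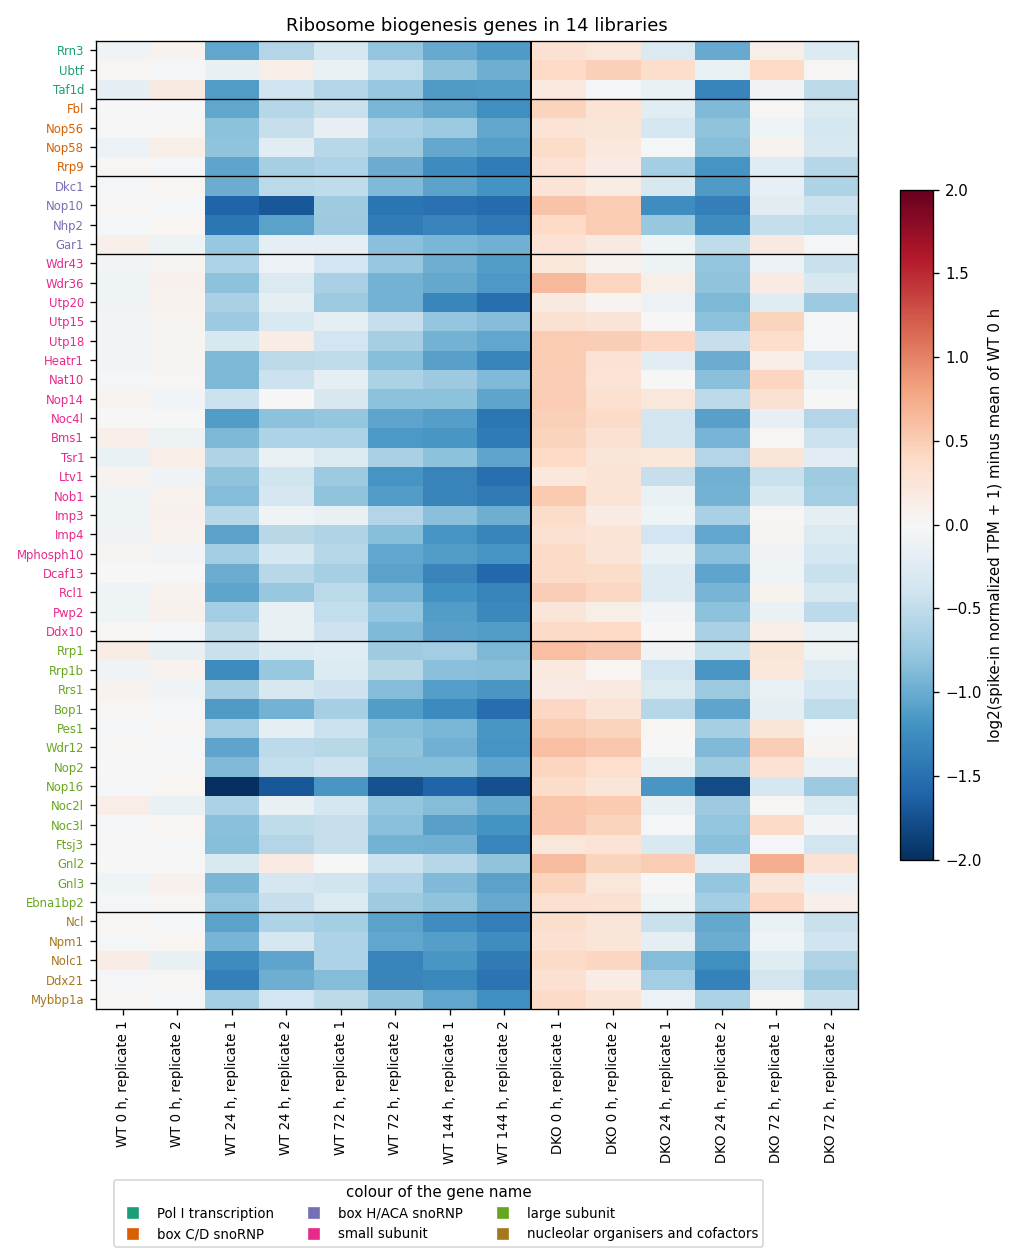
Level of the 50 genes (rows, ordered by role) in the 14 libraries (columns), as log2(spike-in normalized TPM + 1) minus the mean of the 2 WT libraries at 0 h. Blue is lower and red higher; all 50 rows are blue in both WT libraries at 144 h, and *Nop16*, *Nop10* and *Nhp2* are the darkest in WT cells at 24 h. In plain TPM 16 of the 50 genes had a positive log2 fold change at 144 h.

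The first question was how the genes responded to mTORi over time in WT cells. By 144 h, 49 of the 50 were called lower on the spike-in scale in comparison with 0 h, and the exception was *Gnl2* (limma, adjusted p = 0.052). Their median log2 fold change was -1.13, with a range of -1.68 to -0.69. The background was large, since 50.5% of all genes tested were also called lower and the median of all genes was -0.83. In plain TPM the same median was -0.11, 34 of the 50 values were negative, and 5 genes were called lower, beside 11.7% of all genes, and 1 higher, beside 15.6%. Relative to the median of all genes, that of the 50 genes was -0.30 on the spike-in scale and -0.16 in plain TPM. It was -0.19 with a pseudocount of 0.1 and -0.91 over all 38890 genes above 0. Against the 4983 genes whose mean level reached 50 spike-in normalized TPM, a reference chosen after the data were seen because low genes shrink on the log2(TPM + 1) scale, it was -0.09, with 33 of the 50 below the reference median. On the spike-in scale all 50 genes lay below both libraries at 0 h in both libraries at 144 h, beside 82.1% of all genes. In plain TPM 26 lay below, beside 30% of all genes, and 10 above, beside 37.3%. The count of 49 fell to 31 without WT replicate 2 at 0 h, beside 23.9% of all genes in that fit, and to 25 without WT replicate 2 at 144 h, beside 21.5%.

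Pol I transcription was represented by *Rrn3*, *Ubtf* and *Taf1d*. *Taf1d*, a subunit of the Pol I selectivity factor SL1, had 607 and 773 before mTORi, then 314 and 518 at 24 h, 459 and 403 at 72 h and finally 313 and 316 at 144 h, in spike-in normalized TPM. Both libraries at each mTORi time lay below both at 0 h, and the log2 fold change at 144 h was -1.12 ± 0.33 (SE, n = 2 per group, adjusted p = 0.01). *Ubtf* encodes the architectural factor UBF of ribosomal DNA. It had 351 and 339 before mTORi, then 312 and 376 at 24 h, 314 and 245 at 72 h and finally 197 and 174 at 144 h. The libraries at 24 h surrounded those at 0 h, and the values went down from there, to a log2 fold change of -0.90 ± 0.26 (SE, n = 2 per group, adjusted p = 0.0094) at 144 h. In plain TPM the value of *Ubtf* turned to 0.13 (adjusted p = 0.48). *Rrn3* had a log2 fold change of -1.07 at 144 h on the spike-in scale.

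Box C/D snoRNAs guide the methylation of ribose in the precursor, and a few, such as U3, act in its cleavage. Among their proteins *Rrp9*, a protein of the U3 snoRNP, had the most negative value at 144 h. It had 257 and 249 before mTORi, then 122 and 159 at 24 h, 165 and 127 at 72 h and finally 105 and 95.5 at 144 h, in spike-in normalized TPM. All 6 libraries under mTORi lay below those at 0 h, with log2 fold changes in order of time of -0.86, -0.80 and -1.33 ± 0.27 (SE, n = 2 per group, adjusted p = 9.7e-04). *Nop56* had 1055 and 1088 before mTORi, then 605 and 779 at 24 h, 959.9 and 680.3 at 72 h and finally 639 and 522 at 144 h. All libraries under mTORi lay below those at 0 h, and the log2 fold change at 144 h was -0.89 ± 0.27 (SE, n = 2 per group, adjusted p = 0.012). Without the spike-in factor it was 0.14 (adjusted p = 0.52), of the opposite sign. *Fbl*, the methyltransferase fibrillarin, and *Nop58*, the partner of *Nop56*, lay between these with -1.14 and -1.07 on the spike-in scale.

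The box H/ACA snoRNPs convert uridine to pseudouridine and share their proteins with telomerase. *Nhp2* had the highest level of the 4 genes. Its spike-in normalized TPM were 552 and 580.0 before mTORi, then 208 and 270.4 at 24 h, 340.0 and 213 at 72 h and finally 227 and 210.0 at 144 h. All libraries under mTORi lay below those at 0 h, and those at 24 h were already close to those at 144 h, with log2 fold changes in order of time of -1.25 ± 0.27 (SE, n = 2 per group, adjusted p = 0.007), -1.07 and -1.37. *Nop10*, the smallest protein of the complex (mm10, chr2:112261926-112263269), had 273 and 264 before mTORi, then 87.7 and 82.2 at 24 h, 163 and 97.1 at 72 h and finally 94.4 and 91.3 at 144 h. Both libraries at 24 h lay below both at 144 h, so the lowest level came at the earliest time under mTORi. Its log2 fold changes were -1.65 ± 0.27 (SE, n = 2 per group, adjusted p = 9.7e-04) at 24 h, -1.09 ± 0.27 (SE, n = 2 per group, adjusted p = 0.017) at 72 h and, at the last time, -1.52 ± 0.27 (SE, n = 2 per group, adjusted p = 3.7e-04). In plain TPM they were -1.27 (adjusted p = 0.0027), -0.66 (adjusted p = 0.063) and -0.50 (adjusted p = 0.14). *Gar1*, the least negative of the 4 genes at 144 h, had 140.1 and 121 before mTORi, then 76.8 and 114 at 24 h, 115 and 72.7 at 72 h and finally 68.7 and 66.1 at 144 h, and a log2 fold change of -0.94 ± 0.29 (SE, n = 2 per group, adjusted p = 0.012) at 144 h that became 0.08 (adjusted p = 0.76) in plain TPM. *Dkc1*, the pseudouridine synthase dyskerin, had -1.13 at 144 h on the spike-in scale.

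All 20 small subunit factors were called lower at 144 h on the spike-in scale, between -1.44 for *Dcaf13* and -0.80 for *Nat10*, beside 50.5% of all genes, and in plain TPM 3 of the 20 were, beside 11.7%. *Dcaf13*, a factor of the small subunit processome, had 171 and 172 before mTORi, then 85.9 and 116 at 24 h, 108 and 81.6 at 72 h and finally 68.1 and 57.4 at 144 h, in spike-in normalized TPM. Its 6 libraries under mTORi lay below those at 0 h, and those at 144 h were the lowest. The log2 fold change was -1.44 ± 0.29 (SE, n = 2 per group, adjusted p = 9.9e-04), and -0.42 (adjusted p = 0.02) in plain TPM. *Nat10* encodes an acetyltransferase of 18S rRNA. Its spike-in normalized TPM were 134 and 138 before mTORi, then 72.3 and 101 at 24 h, 119 and 87.7 at 72 h and finally 81.9 and 73.5 at 144 h. The log2 fold change at 144 h was -0.80 ± 0.30 (SE, n = 2 per group, adjusted p = 0.034) and turned to 0.21 (adjusted p = 0.13) in plain TPM. *Wdr43*, with the highest level of the 20, had 289 and 315 before mTORi, then 196 and 278 at 24 h, 232 and 179 at 72 h and finally 152 and 138 at 144 h. Its libraries under mTORi lay below those at 0 h, and at 144 h it had a log2 fold change of -1.05 ± 0.28 (SE, n = 2 per group, adjusted p = 0.0057). *Nob1*, the endonuclease that makes the mature end of 18S rRNA, and *Utp20* were chosen after their values were seen. Together with *Dcaf13*, *Nop16* and *Ddx21* they were the 5 genes called lower at 144 h on both scales, beside 11.7% of all genes, with -0.35 (adjusted p = 0.023) for *Nob1* and -0.38 (adjusted p = 0.0074) for *Utp20* in plain TPM.

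The 14 large subunit factors spanned the widest range of the 6 roles at 144 h, from -1.68 to -0.69 on the spike-in scale. Of these, 13 were called lower, beside 50.5% of all genes, and in plain TPM 1 was called lower, beside 11.7%, and 1 higher, beside 15.6%. *Nop16* (mm10, chr13:54584185-54590090), a factor of early large subunit particles, had 124 and 131 before mTORi, then 29.3 and 38.6 at 24 h, 56.5 and 37.5 at 72 h and finally 41.5 and 36.9 at 144 h, in spike-in normalized TPM. The level at 24 h was 26.6% of that at 0 h, and at 144 h it was 30.7%. Its log2 fold changes were -1.89 ± 0.30 (SE, n = 2 per group, adjusted p = 8.3e-04) at 24 h, -1.45 ± 0.30 (SE, n = 2 per group, adjusted p = 0.0066) at 72 h and, at the last time, -1.68 ± 0.30 (SE, n = 2 per group, adjusted p = 3.9e-04), and the values at 24, 72 and 144 h were each the most negative of the 50 genes. In plain TPM *Nop16* had 58.8 and 62.2 before mTORi, then 20.5 and 20.8 at 24 h, 34.2 and 25.2 at 72 h and finally 38.8 and 36.9 at 144 h. On this scale the lowest libraries were those at 24 h and the values at 144 h lay above those at 72 h, with log2 fold changes against 0 h of -1.51 (adjusted p = 6.2e-05) at 24 h, then -1.02 (adjusted p = 6.0e-04) and, at the last time, -0.66 (adjusted p = 0.0042). *Gnl3*, the GTP-binding protein nucleostemin that ES cells express strongly, had 502 and 571 before mTORi, then 284 and 426 at 24 h, 404 and 347 at 72 h and finally 288 and 255 at 144 h in spike-in normalized TPM. Its log2 fold change at 144 h was -0.98 ± 0.29 (SE, n = 2 per group, adjusted p = 0.01), and 0.05 (adjusted p = 0.76) in plain TPM.

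*Gnl2* (mm10, chr4:125016585-125055380), a related GTP-binding protein of the large subunit, stood at the other end. It had 190.4 and 193 before mTORi, then 154 and 214 at 24 h, 192 and 142 at 72 h and finally 129 and 109 at 144 h, in spike-in normalized TPM. The libraries at 24 h lay on both sides of those at 0 h and 1 at 72 h lay between them, whereas both at 144 h were lower. The log2 fold change was -0.69 ± 0.29 (SE, n = 2 per group, adjusted p = 0.052) at 144 h, and with the replicate number as a block the adjusted p was 0.012. In plain TPM *Gnl2* had 90.2 and 91.5 before mTORi, then 108 and 116 at 24 h, 116 and 95 at 72 h and finally 120.1 and 109 at 144 h, and it was called higher on this scale, by 0.29 (adjusted p = 0.049) at 24 h and 0.33 (adjusted p = 0.035) at 144 h.

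*Npm1* (mm10, chr11:33152287-33163206) led the nucleolar organisers. It had 6694 and 7071 before mTORi, then 3599 and 5404 at 24 h, 4508 and 3329.8 at 72 h and finally 3221 and 2903 at 144 h, in spike-in normalized TPM. All libraries under mTORi lay below those at 0 h, and the log2 fold changes were -0.64 ± 0.32 (SE, n = 2 per group, adjusted p = 0.2) at 24 h, -0.83 ± 0.32 (SE, n = 2 per group, adjusted p = 0.1) at 72 h and, at the last time, -1.17 ± 0.32 (SE, n = 2 per group, adjusted p = 0.006). With the replicate block the adjusted p at 72 h was 0.031, past the threshold. In plain TPM it had 3171 and 3349 before mTORi, then 2509.6 and 2915 at 24 h, 2729 and 2234 at 72 h and finally 3009 and 2903 at 144 h, with -0.14 (adjusted p = 0.53) at 144 h. *Ddx21*, a nucleolar RNA helicase, had 573 and 586 before mTORi, then 223 and 295 at 24 h, 319 and 232 at 72 h and finally 238 and 208 at 144 h in spike-in normalized TPM. Its values at 24 h were already close to those at 144 h. The log2 fold changes were -1.17 ± 0.28 (SE, n = 2 per group, adjusted p = 0.012), -1.09 ± 0.28 (SE, n = 2 per group, adjusted p = 0.022) and -1.38 ± 0.28 (SE, n = 2 per group, adjusted p = 9.9e-04), and in plain TPM -0.80 (adjusted p = 5.2e-04), -0.66 (adjusted p = 0.0021) and -0.35 (adjusted p = 0.034). *Mybbp1a*, a Myb-binding protein of the nucleolus, had 782 and 763 before mTORi, then 480.2 and 589 at 24 h, 536 and 440.3 at 72 h and finally 377 and 328 at 144 h, with -1.13 ± 0.27 (SE, n = 2 per group, adjusted p = 0.0027) at 144 h on the spike-in scale. *Ncl* and *Nolc1*, a chaperone of snoRNPs, had -1.31 and -1.29.

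**Figure D2:**
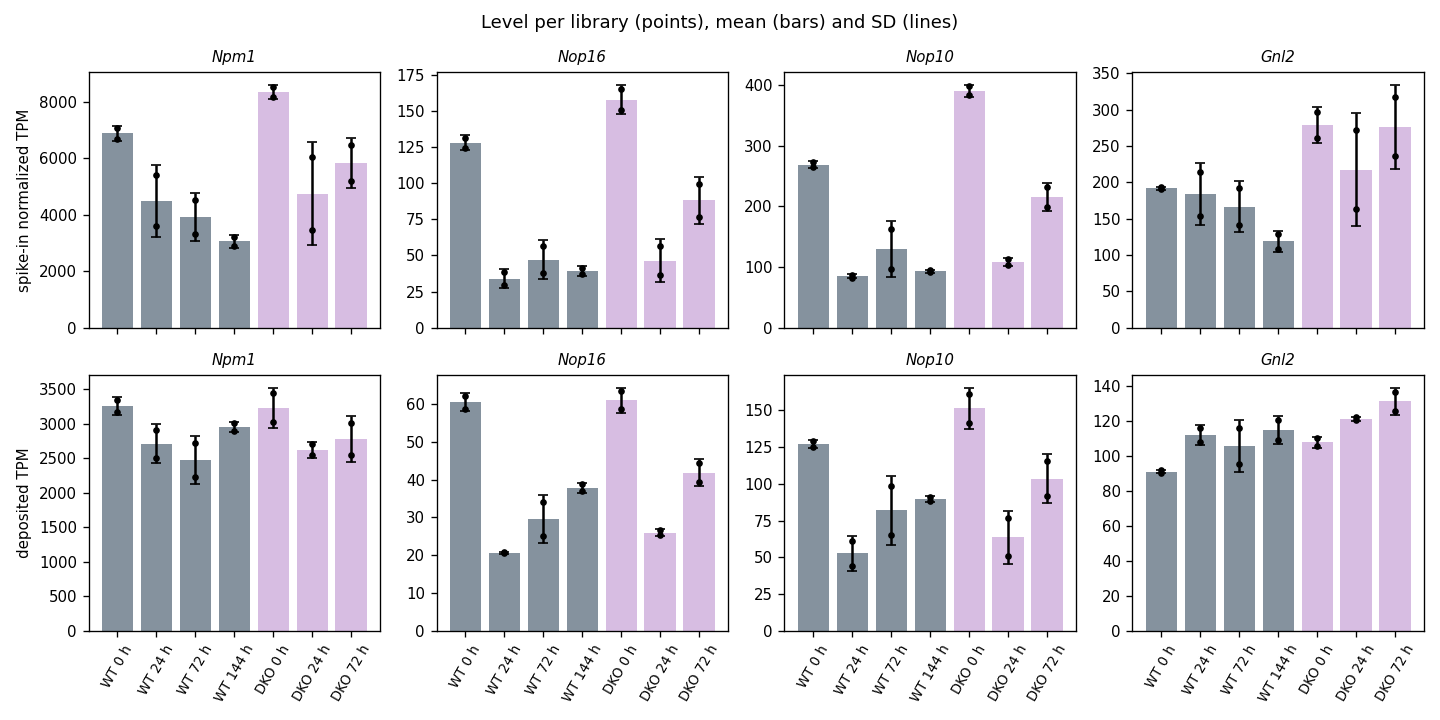
Level of *Npm1*, *Nop16*, *Nop10* and *Gnl2* in each library (points) with the mean (bars) and SD (lines, n = 2) of each group, in spike-in normalized TPM (top) and deposited TPM (bottom), with WT in grey and DKO in violet. *Nop16* and *Nop10* are lowest at 24 h on the deposited scale, where *Gnl2* is above its level at 0 h in all mTORi libraries.

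At the earlier times fewer genes passed. At 24 h in WT cells 10 of the 50 genes were called lower on the spike-in scale and 0 higher, beside 8.73% of all genes lower. These were *Nop10*, *Nhp2*, *Rrp9*, *Nop16* and *Ddx21*, the small subunit factors *Noc4l* and *Rcl1*, the large subunit factors *Rrp1b* and *Bop1*, and *Nolc1*. The median of the 50 genes was -0.64 and that of all genes -0.33, and relative to the reference of genes that reached 50 spike-in normalized TPM it was -0.20. At 72 h 8 genes were called lower, beside 7.6% of all genes, with medians of -0.67 and -0.33, and a median of -0.16 relative to that reference. The small subunit assembly factor *Ltv1* and *Nob1* joined, and *Rrp9*, *Noc4l*, *Rcl1* and *Rrp1b* were not past the threshold, although the first 3 were with the replicate block. All 10 genes called at 24 h were also called in plain TPM, beside 8.07% of all genes called lower on both scales. In plain TPM 22 genes passed as lower, beside 14.1% of all genes, and *Gnl2* as higher, beside 15.8%, and the median was -0.27. At 72 h in plain TPM 14 genes were called lower, beside 11.4% of all genes, with a median of -0.24. Of the 8 genes called at 72 h on the spike-in scale, 6 were also called in plain TPM, beside 6.72% of all genes. *Nop10* and *Nolc1* were not. Both libraries at 24 h lay below both at 0 h for 46 of the 50 genes on the spike-in scale, beside 47.8% of all genes, and both at 72 h for 49, beside 55.3%. In plain TPM these counts were 35, beside 31.6%, and 32, beside 28.3%. On that scale 5 genes lay above at 24 h, beside 32.4% of all genes, and 1 at 72 h, beside 33.8%. The spike-in factors of the 2 libraries at 24 h were 1.43 and 1.85, and on that scale the members' medians relative to 0 h were -0.86 and -0.42 in the 2 libraries, against -0.31 and -0.23 in plain TPM.

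Time points of 1 replicate were handled in parallel per the study's methods, so the replicate number was also fitted as a block within each genotype. With this block 29 genes were called lower at 24 h, beside 25.7% of all genes, 32 at 72 h, beside 25.4%, and 50 at 144 h, beside 66.3%, in WT cells on the spike-in scale. Without any 1 of the 4 libraries compared, the unblocked counts went down. At 24 h they were 2 without WT replicate 1 at 0 h, 2 without replicate 2 at 0 h, 2 without replicate 1 at 24 h and 6 without replicate 2 at 24 h, where 3.12%, 1.58%, 1.46% and 5.89% of all genes were called lower. At 72 h they were 1 and 0 without replicates 1 and 2 at 0 h, and 5 and 0 without replicates 1 and 2 at 72 h, where the shares of all genes were 2.33%, 0.883%, 2.44% and 0.318%.

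The roles are described by their medians, with no test. On the spike-in scale at 24 h the medians were -1.0 for box H/ACA genes, -0.84 for organisers and cofactors, -0.76 for Pol I transcription, -0.72 for box C/D genes, -0.65 for the large and -0.54 for the small subunit. At 144 h they lay between -1.29 for the organisers and -1.01 for the large subunit. Between 72 and 144 h the median of the 50 genes was -0.44 and that of all genes -0.50, and 0 genes were called by limma in either direction (1, *Ubtf*, was lower at an unadjusted p under 0.05, beside 19% of all genes), beside 0.389% of all genes called lower. In plain TPM the median of this step had the opposite sign, 0.15 (0.10 with median centring), with 0 of 50 negative and 0 called. For all 18232 genes the plain TPM median was 0.02, with 8213 negative, 0.121% called lower and 0.236% called higher. By group mean, 47 of the 50 genes were lowest at 144 h on the spike-in scale and 3, *Nop10*, *Nop16* and *Rrp1b*, at 24 h. In plain TPM the lowest mean came at 24 h for 27 genes, at 72 h for 20, before mTORi for 3 and at 144 h for 0.

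**Figure D3:**
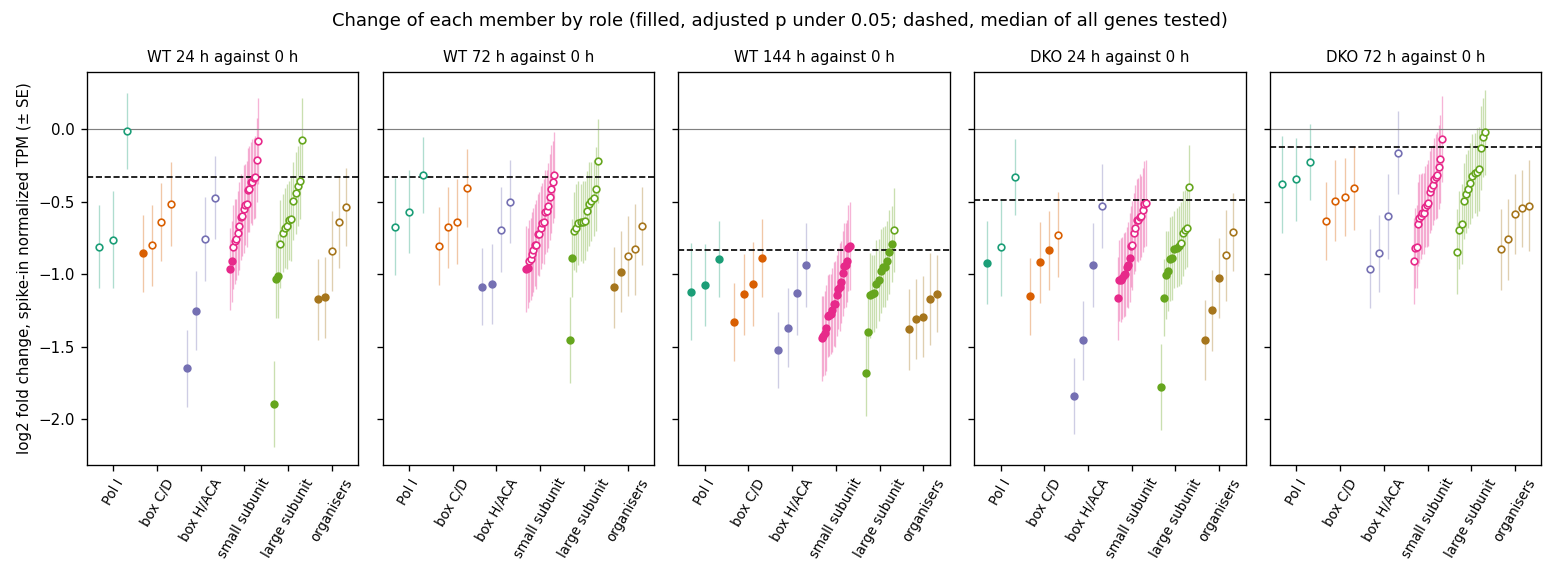
Log2 fold change (± SE, n = 2 per group) of each of the 50 genes against 0 h of the same genotype in spike-in normalized TPM, by role. Filled points are called at an adjusted p under 0.05 and the dashed line is the median of all 18232 genes tested; 49 points are filled for WT at 144 h (50.5% of all genes) and 0 for DKO at 72 h (2.95%). In plain TPM, not drawn, the counts were 5 (11.7%) and 12 (9.06%).

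The second question was whether *Tet1/2* DKO cells responded in the same way. After 24 h 29 of the 50 genes were called lower in DKO cells on the spike-in scale, beside 18.7% of all genes. The median was -0.85 and that of all genes -0.49, and relative to the reference of genes that reached 50 spike-in normalized TPM it was -0.17. In plain TPM 23 genes were called lower, beside 13.3% of all genes, all of them among the 29 (13% of all genes were called on both scales), with a median of -0.28. With the replicate block 44 genes were called on the spike-in scale, beside 38.1% of all genes. Both DKO libraries at 24 h lay below both at 0 h for 49 of the 50 genes on the spike-in scale, beside 46.3% of all genes. In plain TPM this held for 33, beside 28.4%, and 1 lay above, beside 28.2%. The count of 29 moved with single libraries and was 4 and 8 without DKO replicates 1 and 2 at 0 h, 49 without replicate 1 at 24 h and 5 without replicate 2 at 24 h. In the same 4 fits 4.17%, 9%, 47.7% and 5.35% of all genes were called lower.

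*Nop10* had the most negative value at 24 h. In DKO libraries its spike-in normalized TPM were 398 and 383 before mTORi, 113 and 104 after 24 h and 232 and 199.5 after 72 h, and the log2 fold change at 24 h was -1.84 ± 0.27 (SE, n = 2 per group, adjusted p = 2.6e-04). *Nop16* had 165 and 150.5 before mTORi, 56.7 and 36.1 after 24 h and 99.6 and 76.7 after 72 h, with -1.78 ± 0.30 (SE, n = 2 per group, adjusted p = 7.5e-04) at 24 h and -0.84 ± 0.30 (SE, n = 2 per group, adjusted p = 0.11) at 72 h, where the block gave an adjusted p of 0.016. Both genes were lowest in the 2 libraries at 24 h. *Nhp2*, which had the most negative value of the 50 genes at 72 h, had 747 and 809 before mTORi, 335 and 239 after 24 h and 407 and 389 after 72 h. Its log2 fold changes were -1.45 ± 0.27 (SE, n = 2 per group, adjusted p = 0.0017) at 24 h and -0.96 ± 0.27 (SE, n = 2 per group, adjusted p = 0.054) at 72 h, and with the block the adjusted p at 72 h was 0.0094. All 4 libraries under mTORi lay below both at 0 h. *Ddx21* had 714 and 643 before mTORi, 359 and 225 after 24 h and 450.2 and 355 after 72 h, with -1.25 ± 0.28 (SE, n = 2 per group, adjusted p = 0.0051) at 24 h. *Npm1* had 8534 and 8171 before mTORi, 6043 and 3454 after 24 h and 6458 and 5202 after 72 h, and its log2 fold change of -0.87 ± 0.32 (SE, n = 2 per group, adjusted p = 0.058) at 24 h did not pass without the block and did with it (adjusted p = 0.017), and no library under mTORi reached those at 0 h.

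*Gnl2* was again near the upper end. Its spike-in normalized TPM in DKO cells were 296 and 261 before mTORi, 272 and 163 after 24 h and 318 and 236 after 72 h, and the groups overlapped. Its log2 fold change at 72 h was -0.02 ± 0.29 (SE, n = 2 per group, adjusted p = 0.98), the value nearest to 0 among the 50 genes. *Ubtf* had 456 and 483 before mTORi, 441 and 316 after 24 h and 457 and 350.1 after 72 h, with -0.33 ± 0.26 (SE, n = 2 per group, adjusted p = 0.39) at 24 h. Its group at 72 h overlapped that at 0 h. *Taf1d* had 782 and 676 before mTORi, 626 and 273 after 24 h and 651 and 478 after 72 h, with -0.81 ± 0.33 (SE, n = 2 per group, adjusted p = 0.091) at 24 h and an adjusted p of 0.015 with the block.

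The box C/D genes *Nop56* and *Rrp9* passed at 24 h. *Nop56* had 1291 and 1264 before mTORi, 836 and 612 after 24 h and 1014 and 842 after 72 h, with -0.84 ± 0.27 (SE, n = 2 per group, adjusted p = 0.036) at 24 h on the spike-in scale. *Rrp9* had 309.6 and 284 before mTORi, 158 and 111 after 24 h and 215 and 169.8 after 72 h, with -1.15 ± 0.27 (SE, n = 2 per group, adjusted p = 0.0064). In both, the libraries at 72 h lay above those at 24 h and below those at 0 h.

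*Gar1* had 158 and 148 before mTORi, 123 and 90.9 after 24 h and 147 and 127 after 72 h in spike-in normalized TPM. *Wdr43* had 354 and 317 before mTORi, 279.7 and 174 after 24 h and 278 and 221 after 72 h. *Dcaf13* had 225 and 222 before mTORi, 143 and 82.2 after 24 h and 161 and 125 after 72 h. In these 3 genes all libraries under mTORi lay below those at 0 h, and *Dcaf13* passed at 24 h with -1.04 ± 0.29 (SE, n = 2 per group, adjusted p = 0.018). *Nat10* had 191 and 165 before mTORi, 136 and 75.5 after 24 h and 184 and 128 after 72 h. *Gnl3* had 729 and 624 before mTORi, 537 and 312 after 24 h and 631 and 490.2 after 72 h. The groups at 0 and 72 h overlapped in both. *Mybbp1a* had 1008 and 935 before mTORi, 713 and 495 after 24 h and 784 and 564 after 72 h. In each of these 6 genes replicate 2 at 24 h was the lowest of the 6 DKO libraries, and it was also the library with the smallest spike-in factor among them, 1.36.

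At 72 h in DKO cells 0 of the 50 genes were called by limma on the spike-in scale, although all 50 values were negative, with a median of -0.48 beside -0.12 for all genes. Of all genes 2.95% were called lower. At an unadjusted p under 0.05, 14 of the 50 were lower, beside 14.1% of all genes. The median of the 50 genes was -0.15 relative to the reference of genes that reached 50 spike-in normalized TPM. In plain TPM 12 genes were called lower, beside 9.06% of all genes, with a median of -0.17, and with the replicate block 10 on the spike-in scale, beside 13.2%. The comparisons within 1 genotype share its libraries at 0 h. By group mean 48 of the 50 genes were lowest at 24 h and 2, *Utp20* and *Nob1*, at 72 h on the spike-in scale, and 38 at 24 h in plain TPM.

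**Figure D4:**
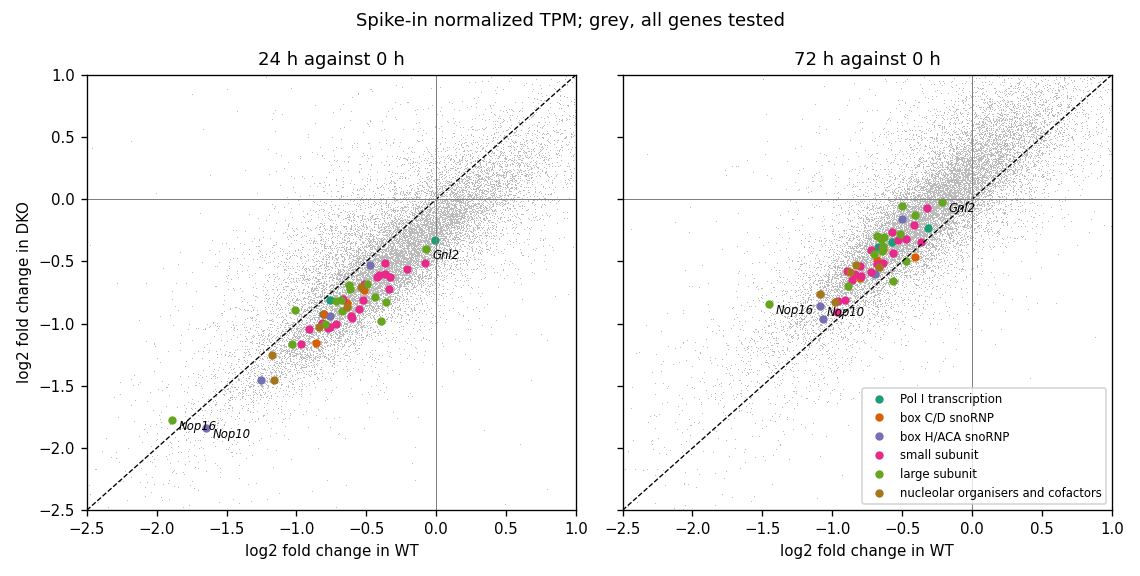
Log2 fold change of the 50 genes (coloured by role) in WT (x axis) and DKO cells (y axis) at 24 h and 72 h against 0 h of the same genotype, in spike-in normalized TPM, with all genes tested as grey dots and equal change as a dashed line (genes beyond the axes are not drawn). At 24 h 48 of the 50 genes lie below the line and at 72 h 47 lie above it, and 0 of these differences passed the test. In plain TPM 27 and 41 had these signs, and of all 18232 genes 13734 and 14435 did on the spike-in scale.

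The difference of the responses was tested as such, and 0 of the 50 genes passed by limma at 24 h or at 72 h (0 also at an unadjusted p under 0.05), beside 1 and 0 of all 18232 genes, and 1.22% and 0.993% at an unadjusted p under 0.05. At 24 h the median difference, DKO minus WT, was -0.20 on the spike-in scale, with -0.19 for all genes, and at 72 h 0.22, with 0.21 for all genes. In plain TPM the medians were -0.01 and 0.09. With the replicate block 0 passed as well. *Nop16* had the largest difference at 72 h, 0.61 ± 0.42 (SE, n = 2 per group, adjusted p = 1), and *Noc2l*, a factor chosen after its value was seen, the most negative at 24 h, -0.58 ± 0.39 (SE, n = 2 per group, adjusted p = 1). The sign at 24 h was negative for 48 genes and the sign at 72 h positive for 47, and in plain TPM these counts were 27 and 41. Of all 18232 genes 13734 and 14435 had these signs on the spike-in scale and 9540 and 12028 in plain TPM.

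Levels were also compared between genotypes at each time. On the spike-in scale the 50 genes had a median log2 difference, DKO minus WT, of 0.33 before mTORi, 0.11 at 24 h (-0.01 with median centring) and 0.55 at 72 h, beside 0.29, 0.10 and 0.49 for all genes. Relative to the reference of genes that reached 50 spike-in normalized TPM the medians were -0.01, 0.02 and 0.03. In plain TPM the medians of the 50 genes were 0.04, 0.02 and 0.14, beside 0.02, 0.01 and 0.11 for all genes. By limma 0 genes were called on the spike-in scale at any time, beside 0.0274%, 0.011% and 0.302% of all genes called higher. At an unadjusted p under 0.05, 1 gene was higher at 0 h, beside 7.52% of all genes, 0 at 24 h, beside 2.42%, and 18 at 72 h, beside 22.5%. At 0 h both DKO libraries lay above both WT libraries for 47 of the 50 genes, beside 52.9% of all genes, and in plain TPM this held for 17, beside 24.4%. On the spike-in scale it held for 1 gene at 24 h, beside 11.1% of all genes, and for 44 at 72 h, beside 62.6%. In plain TPM it held for 15 at 24 h, beside 21.6%, and for 17 at 72 h, beside 39.3%. *Npm1*, for example, had 6694 and 7071 in WT and 8534 and 8171 in DKO cells at 0 h in spike-in normalized TPM, and 3171 and 3349 against 3032 and 3441 in plain TPM, where the groups overlapped. At 72 h *Wdr12* and *Noc3l*, 2 large subunit factors chosen after their values were seen, were called higher in DKO cells in plain TPM, by 0.54 (adjusted p = 0.024) and 0.40 (adjusted p = 0.044), beside 3.17% of all genes.

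To place the 50 genes in the pathway, 99 other ribosome biogenesis factors and 79 cytosolic ribosomal protein genes were described in the same fit. The other factors had medians of -0.62, -0.68 and -1.16 at 24, 72 and 144 h in WT cells on the spike-in scale, where 17, 21 and 96 of the 99 were called lower, beside 8.73%, 7.6% and 50.5% of all genes. In plain TPM the medians of these 99 were -0.25, -0.26 and -0.16. Of them 38, 36 and 23 were called lower, beside 14.1%, 11.4% and 11.7% of all genes. As higher, 6, 0 and 2 were called, beside 15.8%, 12.6% and 15.6%. The 50 genes had medians of -0.64, -0.67 and -1.13 on the spike-in scale. The most negative of the 99 other factors at 144 h was *Pno1*, an assembly factor of the small subunit, with -1.78 ± 0.28 (SE, n = 2 per group, adjusted p = 0.00017), the middle one *Rrp8* with -1.16 ± 0.31 (SE, adjusted p = 0.0054) and the least negative *Taf1b*, a Pol I factor, with -0.68 ± 0.32 (SE, adjusted p = 0.077).

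The ribosomal protein genes had medians of -0.11, -0.31 and -0.73, with 0, 0 and 47 of the 79 called lower on the spike-in scale, against the same shares of all genes. In plain TPM their medians were of the opposite sign, 0.26, 0.12 and 0.30, with 21, 6 and 17 called higher (beside 15.8%, 12.6% and 15.6% of all genes) and 0 lower, while the medians of the 50 biogenesis genes were -0.27, -0.24 and -0.11. The difference between the lists was not tested. *Rpl24* had the most negative value at 144 h, -1.24 ± 0.28 (SE, n = 2 per group, adjusted p = 0.0022), and *Rps27* the least negative, -0.29 ± 0.28 (SE, adjusted p = 0.39), both on the spike-in scale. *Rpl31* was the middle gene with -0.73 ± 0.28 (SE, adjusted p = 0.033), and in plain TPM it had a value of 0.30. In DKO cells the ribosomal protein medians were -0.51 at 24 h and -0.27 at 72 h on the spike-in scale and 0.06 and 0.03 in plain TPM, beside -0.90 and -0.51 and then -0.33 and -0.21 for the other factors.

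**Figure D5:**
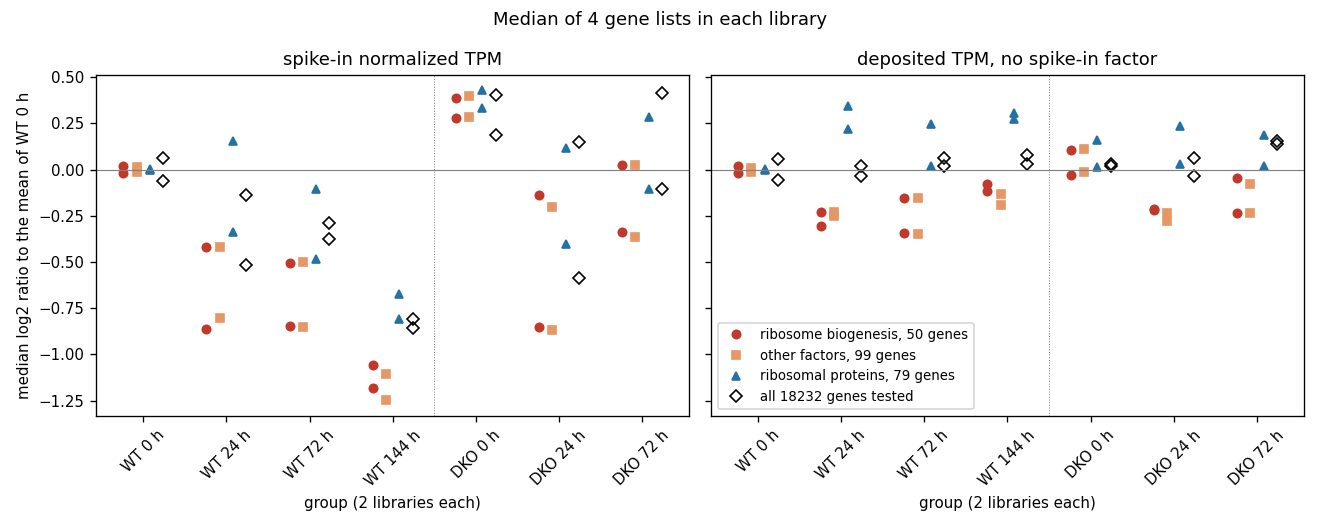
Median log2 ratio to the mean of WT at 0 h of 4 gene lists in each library (points, 2 per group), in spike-in normalized TPM (left) and deposited TPM (right). The 50 ribosome biogenesis genes and the 99 other factors lie below all genes in every mTORi library on both scales. In the right panel the ribosomal protein genes lie above 0 in every mTORi library, and also in both DKO libraries at 0 h (0.014 and 0.162). There they lie below all genes in WT replicate 2 at 72 h (0.017 against 0.061). The same holds in DKO replicate 1 at 24 h (0.032 against 0.064) and at 72 h (0.019 against 0.153).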

How the data were processed

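RNA-seq libraries were made from sorted cells with ERCC spike-ins and rRNA depletion. The authors deposited TPM per gene for each library, made with cutadapt 2.4, STAR 2.7.3a and StringTie 2.0 per the submitters' processing notes, on mm10. TPM were summed per gene identifier. For spike-in normalized TPM, each library was multiplied by 1 factor, the median ratio of the study's normalized table (first 1999 entries, genes of at least 1 TPM) to the deposited TPM. Values as log2(TPM + 1) of 18232 genes whose mean reached 1 spike-in normalized TPM were fitted in limma 3.58.1 (R 4.3.3, trend, 7 residual degrees of freedom) with all 7 groups, and p-values were adjusted by Benjamini-Hochberg over all of them. Genes were called at an adjusted p under 0.05. Fold changes on this scale understate changes of low genes. No count test fits TPM, so the test differs from that of the study. The fit was also run on simulated data whose spread was drawn for each gene alone, so shifts shared by a whole library were not tested.

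Library values were given, within each role, for the genes with the highest level and with the most and least negative change at 144 h in WT cells, and for the genes with the most and least negative change in DKO cells at 72 h. Members and lists were chosen with earlier results of these data known. The study's methods state parallel processing of the time points of a replicate, so replicate numbers were taken as pairing libraries within a genotype. Differences between replicates correlated at 0.0622 to 0.398 over WT pairs of time points (5 of 6 over 0.1), at 0.222 to 0.341 over DKO pairs (3 of 3) and at -0.50 to 0.12 between genotypes, and a block within genotype (5 residual degrees of freedom) was an alternative. Other alternatives were plain TPM, median centring, a pseudocount of 0.1, no filter, a block over all libraries and leaving out each library.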

Additional observations from a re-analysis of the deposited data

How the results depend on the processing

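The number of the 50 genes called lower was 10, 8 and 49 at 24, 72 and 144 h in WT cells and 29 and 0 at 24 and 72 h in DKO cells. In plain TPM it was 22, 14 and 5 in WT cells (14.1%, 11.4% and 11.7% of all genes), with 1 gene called higher at 24 h and 1 at 144 h, and 12 in DKO cells at 72 h (9.06%). Between genotypes at 72 h plain TPM called 2 genes higher in DKO cells. With median centring the counts were 25, 26 and 14 in WT cells, beside 17.1%, 15.9% and 15.2% of all genes, and 23 in DKO cells at 72 h, beside 16.6%. Without a filter, where p-values were adjusted over 38890 genes, they were 4 and 2 at 24 and 72 h in WT cells, beside 2.34% and 1.64% of all genes, and 11 in DKO cells at 24 h, beside 5.93%. With the replicate block within genotype they were 29 and 32 at 24 and 72 h in WT cells, beside 25.7% and 25.4% of all genes, and 44 and 10 in DKO cells, beside 38.1% and 13.2%. The block within genotype could not be fitted for DKO against WT, where the block over all libraries called 0 genes at each time. Leaving out 1 library gave 2 to 6 genes at 24 h (1.46% to 5.89% of all genes), 0 to 5 at 72 h (0.318% to 2.44%) and 25 to 43 at 144 h (21.5% to 34.9%) in WT cells and 4 to 49 in DKO cells at 24 h (4.17% to 47.7%). There the lone library of a group was assumed to vary like the other groups. The cause of these differences was not tested. At 144 h in WT cells the sign of 6 named genes turned in plain TPM, to 0.13 for *Ubtf*, 0.14 for *Nop56*, 0.081 for *Gar1*, 0.21 for *Nat10*, 0.048 for *Gnl3* and 0.33 for *Gnl2*, and with median centring that of 2 turned, to 0.031 for *Nat10* and 0.14 for *Gnl2*. A pseudocount of 0.1 and a block over all libraries left each count within 1.5 times its main value. With 2 libraries a group and no read numbers, small differences cannot be resolved.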

Other observations

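Without *Npm1* the other 49 genes summed to 0.733% and 0.743% of all plain TPM in WT cells at 0 h and to 0.582% and 0.602% at 24 h. They summed to 0.672% and 0.563% at 72 h and to 0.704% and 0.669% at 144 h. In DKO cells this share was 0.717% and 0.798% at 0 h and 0.589% and 0.619% at 24 h.

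For each of the 14 libraries, 76 divided by the spike-in factor lay within 0.001 of a whole number. These whole numbers ran from 27 in DKO cells at 0 h to 76 in WT cells at 144 h, so each factor comes in coarse steps.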
